A study of Mus musculus with 20 samples.

Results

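The genes described here mark which neurotransmitter a neuron makes, loads into vesicles or takes back up. The set held 10 genes, listed as markers of glutamate, GABA, glycine, acetylcholine and catecholamine neurons, out of 55487 genes counted. All 10 were found in the count table through their Ensembl identifiers. They were measured in 20 RNA-seq libraries of subcerebral projection neurons of the mouse at postnatal day 1. These are cortical neurons that send axons to the brainstem and spinal cord. Somata, the cell bodies, came from cortex, and growth cones, the tips of growing axons, came from brainstem and spinal cord. Each compartment had 5 WT libraries and 5 libraries of the genotype labelled Bcl11b KO, which the series describes as null for this transcription factor gene. The labels named no strain, Cre line or transgene, nor how many animals entered a library, and the method used to purify the somata and growth cones is not given in the sources used here. Nothing in the labels says that libraries came from separate animals, so the p-values measure the spread between these libraries, which may be technical.

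A neuron that releases glutamate fills its vesicles through a vesicular glutamate transporter: Slc17a7 encodes VGLUT1, the main form of cortical neurons, and Slc17a6 encodes VGLUT2, the main form of brainstem, spinal cord and thalamus. A neuron that releases GABA makes it with the glutamate decarboxylases of Gad1 and Gad2 and loads it through the vesicular inhibitory transporter of Slc32a1, which also loads glycine. Mature subcerebral projection neurons are known as glutamatergic cells. GABAergic, glycinergic and cholinergic neurons are common in the brainstem and spinal cord that the axons of these cells enter.

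Bcl11b itself, the gene that the labels say is deleted, was counted in every library. In somata it was at 494 to 780 CPM (counts scaled to the library total) in WT and at 1023 to 1151 CPM in those labelled KO, and the groups did not overlap (log2 fold change 0.71 ± 0.12 SE, adjusted p = 0.0153, edgeR's quasi-likelihood test). The call was lost when all 20 libraries were fitted together (adjusted p = 0.279, edgeR), with a log2 fold change of 0.72. In growth cones it was at 76.4 to 131 CPM in WT and 67.1 to 144 CPM in those labelled KO. Soma counts of the targeted gene thus went against the label, and counts summed over a gene do not show whether the deleted exons were read. The groups are therefore called "labelled KO" throughout. For somata the library totals ran from 18962308 to 36059112 counts in WT and from 35243688 to 51205154 with the KO label. For growth cones they ran from 26382991 to 29323028 in WT and from 21657575 to 27723067 with the KO label. Markers of subcerebral projection neurons, such as Fezf2 and Crym, were detected in every group: the 10 markers summed to between 2437 and 3224 CPM in somata and between 852 and 1169 CPM in growth cones. With the KO label 2 of the 10 were called higher in somata and 2 lower by edgeR, against 0.731% of 14911 genes in either direction. Bcl11b and Diaph3 (1.695, adjusted p = 0.0114) were higher, and Crym (−2.20, adjusted p = 0.006) and Pcp4 (−1.86, adjusted p = 0.00367) were lower. In growth cones 0 of the 10 were called. Growth cone libraries carry experiment numbers 7 to 11, and soma libraries carry numbers from 12 to 26. Compartment, tissue, experiment and the range of input RNA (0.19 to 3.1 ng for growth cones, 1.8 to 3.1 ng for somata) therefore cannot be told apart.

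Coordinates are those of the deposited table, on build GRCm38. Slc17a7 (ENSMUSG00000070570.5) spans chr7:45163949-45176142 and Slc17a6 (ENSMUSG00000030500.6) spans chr7:51622006-51671119, both on the plus strand. Slc6a5 (ENSMUSG00000039728.15, chr7:49910146-49963856, plus strand) and Th (ENSMUSG00000000214.11, chr7:142892752-142931128, minus strand) share that chromosome. Gad1 (ENSMUSG00000070880.10, chr2:70553072-70602014), Gad2 (ENSMUSG00000026787.3, chr2:22622205-22693874) and Slc32a1 (ENSMUSG00000037771.11, chr2:158610767-158615748) lie on the plus strand. Chat (ENSMUSG00000021919.8, chr14:32408203-32465989) and Slc18a3 (ENSMUSG00000100241.1, chr14:32462438-32464850) overlap on the minus strand, and Slc5a7 (ENSMUSG00000023945.7, chr17:54273590-54299034) is also on the minus strand. The 250 bases upstream of the start site are shown for the 4 genes with the highest levels, since 3 of them were higher in growth cones and Slc17a7 was not. The sequences are those of RefSeq on GRCm38.p6, at chr7:51621580-51621829 for Slc17a6 (the first of 2 start sites listed), chr7:45163671-45163920 for Slc17a7, chr2:70561879-70562128 for Gad1 and chr2:22622077-22622326 for Gad2, all on the plus strand. The Gad1 and Gad2 windows reach into the gene spans of the deposited table, which start further upstream. Capitals mark matches, on either strand, to 5 motifs that were searched.

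Slc17a6: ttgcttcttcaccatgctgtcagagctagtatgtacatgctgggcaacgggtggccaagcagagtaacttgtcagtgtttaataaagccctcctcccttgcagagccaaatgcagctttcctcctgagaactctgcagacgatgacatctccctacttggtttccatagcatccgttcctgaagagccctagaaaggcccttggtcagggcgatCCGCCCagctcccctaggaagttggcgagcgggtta

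Slc17a7: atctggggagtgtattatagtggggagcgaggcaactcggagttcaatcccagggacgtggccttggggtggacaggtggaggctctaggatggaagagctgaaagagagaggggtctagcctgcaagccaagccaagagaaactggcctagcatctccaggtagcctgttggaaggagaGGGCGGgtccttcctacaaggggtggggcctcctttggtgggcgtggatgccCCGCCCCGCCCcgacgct

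Gad1: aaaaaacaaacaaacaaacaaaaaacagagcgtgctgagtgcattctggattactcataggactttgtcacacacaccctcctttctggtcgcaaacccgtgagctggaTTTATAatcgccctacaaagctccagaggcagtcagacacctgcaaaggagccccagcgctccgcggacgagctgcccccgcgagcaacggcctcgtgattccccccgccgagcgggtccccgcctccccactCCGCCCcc

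Gad2: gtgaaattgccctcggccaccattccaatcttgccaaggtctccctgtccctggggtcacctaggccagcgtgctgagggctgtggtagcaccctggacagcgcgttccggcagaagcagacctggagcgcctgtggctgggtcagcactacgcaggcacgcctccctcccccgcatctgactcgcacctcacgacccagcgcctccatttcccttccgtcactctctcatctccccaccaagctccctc

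The motifs were the GC box GGGCGG, the cyclic AMP response element TGACGTCA, the homeodomain core TAATTA, the TATA box TATAAA and the E-box CAGCTG. Slc17a7 had 3 GC boxes, of which the last pair run into each other near the 3′ end, Slc17a6 had 1, Gad1 had 1 GC box and 1 TATA box, and Gad2 matched none. A GC box was found in 32.7% of the 32851 upstream windows of the same length and a TATA box in 12.4%. The cyclic AMP response element (1.55% of windows), the homeodomain core (4.84%) and the E-box (13.001%) were in none of the 4 printed windows. GC content was 53.2% for Slc17a6, 61.2% for Slc17a7, 58.0% for Gad1 and 64.0% for Gad2, against a median of 52.4% over all windows. These letters are a description of the windows and say nothing of what binds there.

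Growth cones were first set against somata. Of the 8 genes that passed the count filter in WT, 5 were higher in growth cones and 0 were lower (edgeR's quasi-likelihood test, false discovery rate 0.05), against 23.1% of the 15128 genes tested that were higher and 19.7% that were lower. Among libraries labelled KO 7 passed the filter, 6 were higher and 0 lower, against 21.6% and 17% of 15410. The GABA genes Gad1, Gad2 and Slc32a1, the glycine transporter gene Slc6a5 and the VGLUT2 gene Slc17a6 were higher in growth cones of both genotypes. Slc17a7, the cortical VGLUT gene, did not pass in either. The same 5 genes in WT, and the same 6 in libraries labelled KO, had every growth cone library above every soma library, which 22.1% and 20% of genes tested also showed. Upper-quartile scaling shifted the median over all genes from 0.07 to 0.28 (log2) in WT and from 0.11 to 0.31 in libraries labelled KO. The calls over all genes moved with it, from 3500 higher and 2976 lower to 3990 and 2347 in WT, and from 3328 and 2620 to 3784 and 2128 in libraries labelled KO, while the number of transmitter genes called higher stayed at 5 and 6. A gene that is near 0 in somata passes the filter only through its growth cone counts and had to differ, so the share of genes called is no evidence about the set. In bulk libraries such as these, fewer cells or processes of a type and less RNA in each cannot be told apart.

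**Figure D1:**
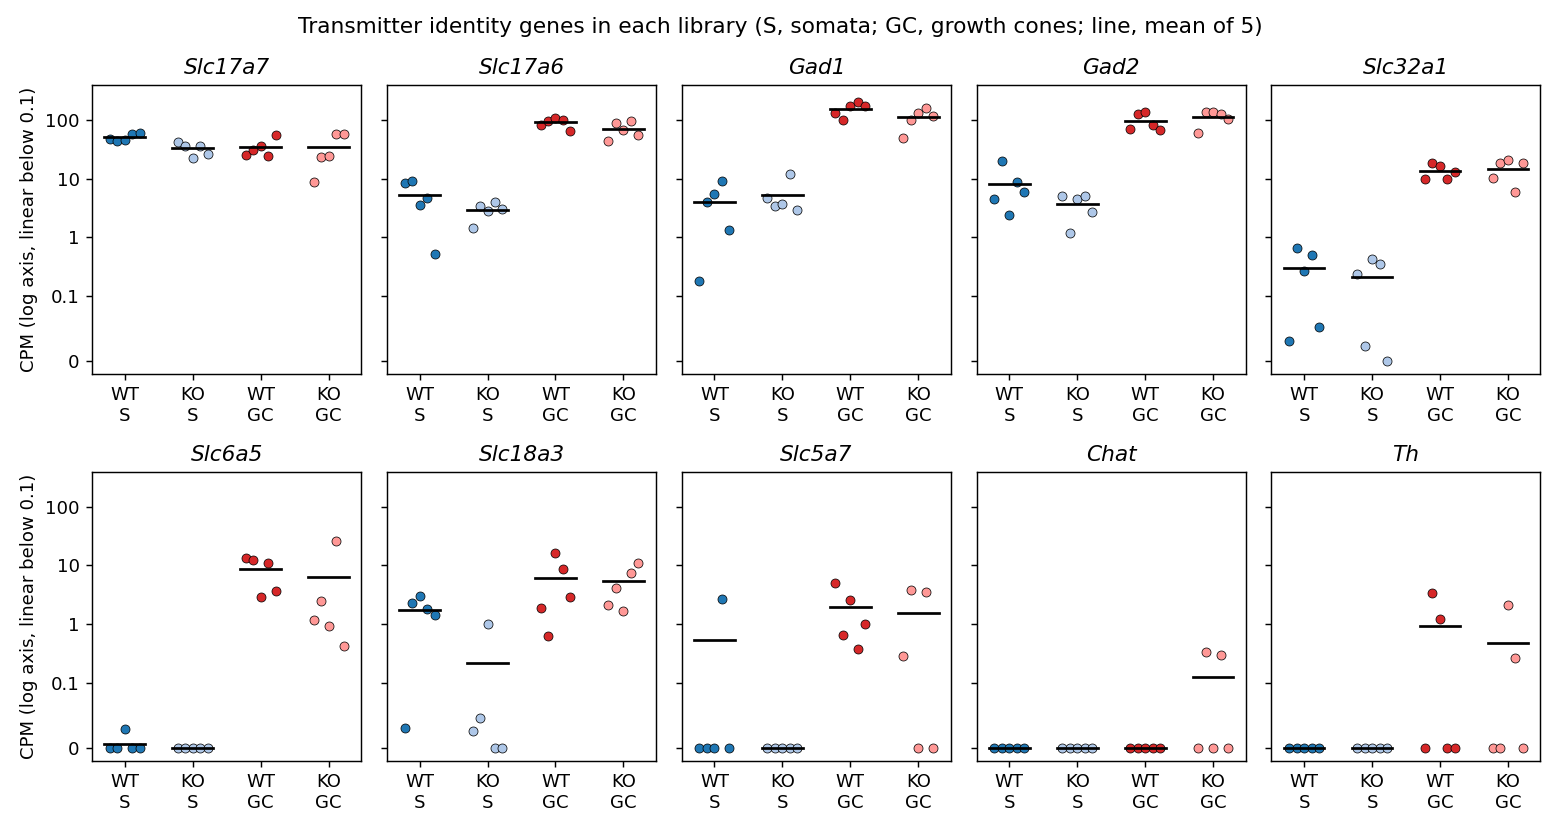
Level of each of the 10 transmitter genes in every library (CPM on an axis that is linear below 0.1 and logarithmic above), with a point per library and groups of somata (S) and growth cones (GC). Slc17a6, Gad1 and Gad2 in growth cones all sit above the soma libraries, while Slc17a7 overlaps between compartments.

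Slc17a6 was at 8.58, 9.30, 3.49, 4.77 and 0.527 CPM in WT somata (experiments 12, 14, 22, 25 and 26) and at 1.46, 3.47, 2.79, 3.93 and 3.04 CPM in somata labelled KO (experiments 14, 15, 22, 25 and 26). In growth cones (experiments 7 to 11) it was at 81.4, 98.5, 111, 101 and 66.0 CPM in WT and at 43.8, 90.1, 68.2, 95.8 and 55.5 CPM in those labelled KO. Every growth cone library was above every soma library, and the lowest soma value, experiment 26 of WT, was far below the other WT somata. The log2 fold change of growth cones over somata was 3.97 ± 0.58 (SE, adjusted p = 0.000174, edgeR) in WT and 4.46 ± 0.36 (adjusted p = 3.73e-06, edgeR) in those labelled KO.

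Slc17a7 was at 46.9, 43.9, 46.3, 57.7 and 61.4 CPM in WT somata and at 41.8, 36.9, 23.0, 36.4 and 26.7 CPM in somata labelled KO. In growth cones it was at 25.8, 31.1, 36.6, 24.6 and 55.0 CPM in WT and at 8.73, 23.7, 24.2, 59.2 and 58.5 CPM in those labelled KO. The WT compartments overlapped through 1 growth cone library, experiment 11, and growth cones labelled KO spread widely on both sides of their somata. In WT the log2 fold change was −0.71 ± 0.27 (adjusted p = 0.0549, edgeR), just short of the threshold, and without growth cone library 11 it was −0.95 (adjusted p = 0.00976). The other 14 of 15 alternatives left the gene uncalled in WT. In libraries labelled KO the log2 fold change was −0.04 ± 0.45 (adjusted p = 0.954, edgeR), and its sign turned with upper-quartile scaling (0.15).

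The share of VGLUT2 in the sum of both VGLUT levels, each per kilobase of exon, was 9.68% ± 6.77 (SD, n = 5) for WT somata and 8.55% ± 3.001 for those labelled KO. It was 72.4% ± 10.2 in WT growth cones and 69.4% ± 14.1 in growth cones labelled KO (SD, n = 5 each). The soma libraries ranged from 0.850% to 17.5% and the growth cone libraries from 48.7% to 83.4%, so the compartments did not overlap in this share. Experiment 11 gave the lowest growth cone share in both genotypes, 54.5% in WT and 48.7% in the library labelled KO.

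Gad1, which encodes the glutamate decarboxylase GAD67, was at 0.181, 4.002, 5.40, 9.15 and 1.32 CPM in WT somata and at 4.70, 3.40, 3.69, 11.97 and 2.87 CPM in somata labelled KO. In growth cones it was at 134, 102, 172, 203 and 177 CPM in WT and at 49.9, 99.5, 135, 162 and 116 CPM in those labelled KO. Every growth cone library exceeded every soma library, and experiment 25 was the highest soma library in both genotypes. The log2 fold change was 5.12 ± 0.75 (adjusted p = 0.000189, edgeR) in WT and 4.29 ± 0.47 (adjusted p = 3.24e-05, edgeR) in libraries labelled KO. The WT value moved to 5.75 without soma library 25.

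Gad2, which encodes GAD65, the form found mainly at nerve terminals, was at 4.56, 19.9, 2.38, 8.62 and 5.85 CPM in WT somata and at 5.09, 1.17, 4.59, 5.03 and 2.72 CPM in somata labelled KO. In growth cones it was at 69.9, 126, 138, 82.8 and 69.2 CPM in WT and at 61.0, 136, 136, 130 and 106 CPM in those labelled KO. The compartments did not overlap, and WT soma library 14 stood highest among somata. The log2 fold change was 3.44 ± 0.52 (adjusted p = 0.000230, edgeR) in WT, or 4.04 without that library, and 4.83 ± 0.42 (adjusted p = 6.89e-06, edgeR) in libraries labelled KO.

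Slc32a1, the vesicular transporter for GABA and glycine, was at 0.0302, 0.662, 0.264, 0.499 and 0.0527 CPM in WT somata and at 0.231, 0.0225, 0.430, 0.353 and 0 CPM in somata labelled KO. In growth cones it was at 9.89, 18.4, 16.6, 10.01 and 12.9 CPM in WT and at 10.2, 18.6, 21.2, 5.86 and 18.6 CPM in those labelled KO. In all, 3 of 5 soma libraries of each genotype held more than 3 counts, while all 10 growth cone libraries did. The log2 fold change was 5.33 ± 0.91 (adjusted p = 0.000578, edgeR) in WT and 6.06 ± 1.13 (adjusted p = 0.00133, edgeR) in libraries labelled KO. In somata alone the gene did not pass the filter. It entered these tests only through its growth cone counts, so its adjusted p adds no support. Of its 2797 exon bases 697 (24.9%) overlap exons of the antisense gene Gm14205, for which 0 counts were listed in every library. Whether reads were assigned by strand is not given in the sources used here, so reads of the shared bases cannot be told apart.

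Slc6a5, the plasma membrane glycine transporter GLYT2 of glycinergic neurons, was almost absent from soma counts. WT somata held 0, 0, 1, 0 and 0 counts and somata labelled KO held 0 in each library. Growth cones held 374, 337, 81, 292 and 106 counts in WT (13.2, 12.3, 2.87, 11.1 and 3.61 CPM) and 29, 61, 26, 704 and 9 counts in those labelled KO (1.16, 2.51, 0.938, 26.1 and 0.416 CPM). In growth cones labelled KO 1 library, experiment 10, carried most of the counts. Summed over libraries and relative to totals, WT growth cones held 1336 times the soma level, with an exact 95% binomial interval of 239 to 52805 that covers counting error only. Growth cones labelled KO were at least 86.8-fold higher than their somata, taking the soma floor as 3 counts per library, and at least 17.5-fold higher without experiment 10. With so few soma counts the gene entered edgeR's test only through its growth cone counts and had to differ, so its adjusted p (6.94e-05 in WT and 0.00388 in libraries labelled KO) adds no support.

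**Figure D2:**
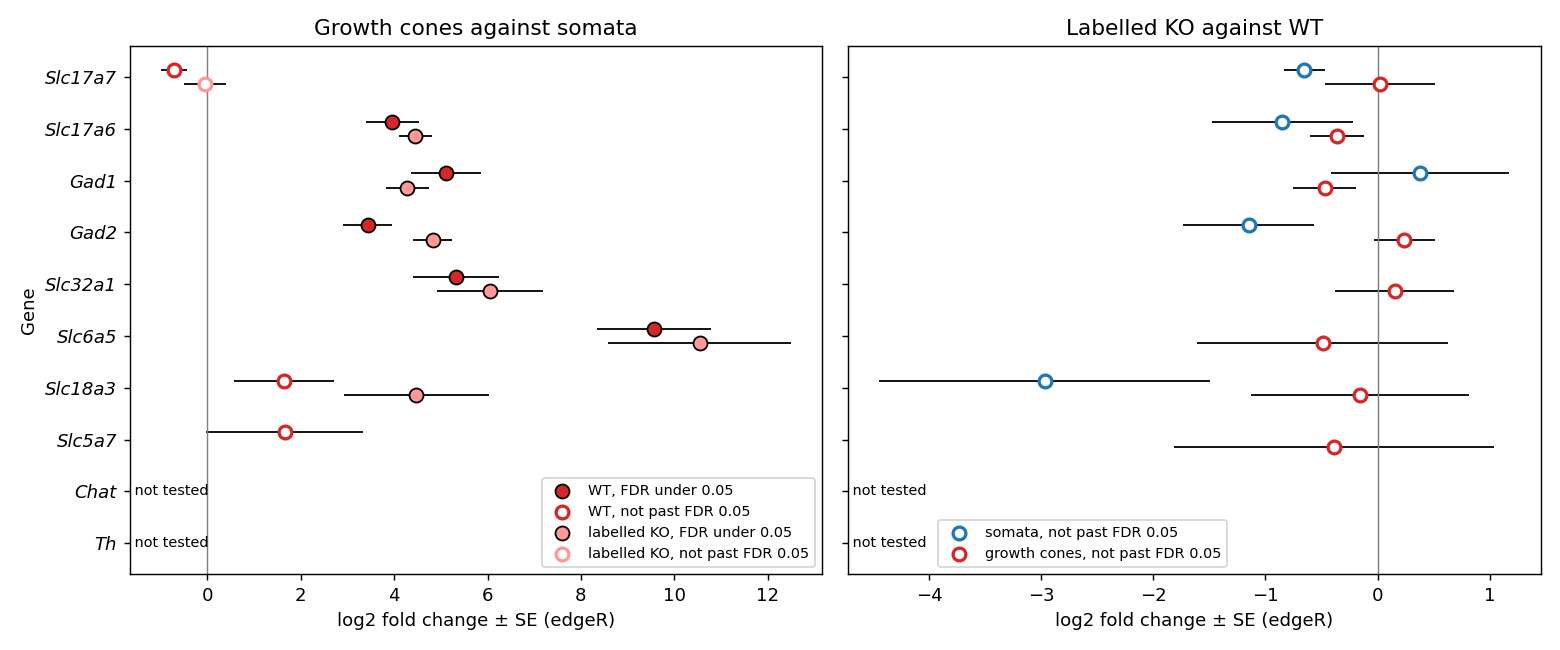
Log2 fold changes ± SE of the 10 genes from edgeR, growth cones against somata on the left and labelled KO against WT on the right, with filled points for an adjusted p under 0.05. The 5 genes Slc17a6, Gad1, Gad2, Slc32a1 and Slc6a5 have filled points in both genotypes on the left, and no point on the right is filled. Missing points are genes that did not pass the count filter.

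The cholinergic genes gave sparse and uneven counts. Chat makes acetylcholine, Slc18a3 loads it into vesicles, and Slc5a7 takes choline back up. Chat was at 0 counts in all 10 soma libraries and in all 5 WT growth cone libraries, and at 0, 8, 0, 8 and 0 counts in growth cones labelled KO, where the libraries with counts stood at 0.330 and 0.297 CPM. It did not pass the filter in any comparison. A count of 0 allows a level of up to 0.158 CPM in the shallowest soma library and up to 0.114 CPM in the shallowest WT growth cone library.

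Slc5a7 was at 98 counts (2.72 CPM) in WT soma library 25 and at 0 in the other 9 soma libraries. It was at 142, 18, 74, 10 and 29 counts in WT growth cones (4.997, 0.656, 2.62, 0.379 and 0.989 CPM) and at 7, 92, 0, 94 and 0 counts in those labelled KO (0.279, 3.79, 0, 3.49 and 0 CPM). The WT compartments overlapped through soma library 25 alone. In WT the log2 fold change was 1.67 ± 1.68 (adjusted p = 0.455, edgeR), and without that soma library it was 8.79 (adjusted p = 0.00274). All WT somata left in that fit were at 0, so the gene had to differ and this adjusted p adds no support. In libraries labelled KO the gene did not pass the filter and 2 of the 5 growth cone libraries held 0. Without the filter the adjusted p was 0.0457 (edgeR), but all somata labelled KO were at 0, so it adds no support either.

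Slc18a3 was at 0.0302, 2.27, 2.96, 1.83 and 1.42 CPM in WT somata and at 0.0257, 0.0451, 0.996, 0 and 0 CPM in somata labelled KO. In growth cones it was at 1.90, 0.620, 16.2, 8.76 and 2.90 CPM in WT and at 2.15, 4.20, 1.66, 7.57 and 11.04 CPM in those labelled KO. WT compartments overlapped, while growth cones labelled KO were all above their somata. The log2 fold change was 1.64 ± 1.07 (adjusted p = 0.240, edgeR) in WT and 4.48 ± 1.55 (adjusted p = 0.0384, edgeR) in libraries labelled KO. The second call was lost in 9 of 15 alternatives, with adjusted p up to 0.0902, and the value moved to 7.80 without soma library 22. Among somata labelled KO only library 22 stood above 0.0451 CPM. The gene thus entered the labelled KO fit only through its growth cone counts, so its adjusted p there adds no support.

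The Slc18a3 gene is a single exon of 2413 bases that starts 1139 bases downstream of the Chat start, in an intron of Chat and on the same strand. The genes share 0 exon bases, so their counts come from separate sequence. Slc18a3 held 274 counts in WT somata and 845 in WT growth cones, where Chat held 0. In growth cones labelled KO they held 645 and 16. Slc18a3 above its floor of 3 counts was found in 4 of 5 WT soma libraries without a count for Chat.

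**Figure D3:**
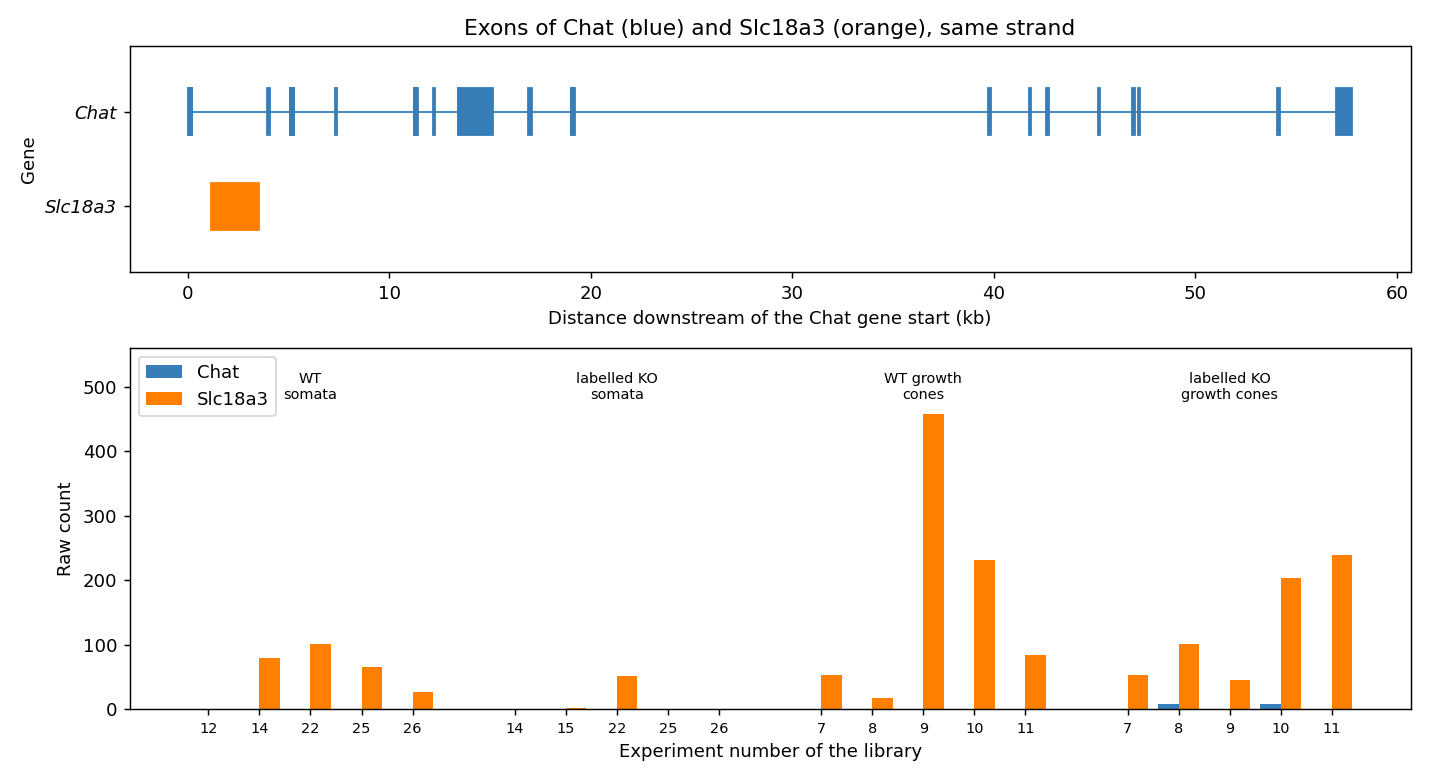
Exons of Chat and Slc18a3 by distance from the Chat start in kilobases, and raw counts of both genes in each of the 20 libraries, ordered by group and experiment. Slc18a3 lies within an intron of Chat and has counts in 18 of 20 libraries and Chat in 2.

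Th, the rate-limiting enzyme of catecholamine synthesis, was at 0 counts in all 10 soma libraries. Growth cones held 0, 92, 34, 0 and 0 counts in WT (up to 3.35 CPM) and 0, 0, 59, 7 and 0 counts in those labelled KO (up to 2.13 CPM). Each genotype thus had 2 growth cone libraries with counts and 3 at 0, and the gene did not pass the filter. In each genotype 1 library, WT growth cone library 8 and labelled KO growth cone library 9, held most of the counts.

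Levels of different genes were compared per kilobase of exon. In WT somata Slc17a7 led with 9.50 ± 1.44 CPM per kilobase (SD, n = 5) and its range did not overlap that of the next gene, Gad2, at 1.41. In somata labelled KO Slc17a7 was at 6.11 ± 1.45 and Gad1 followed at 0.697, again without overlap. In WT growth cones Gad1 (20.6 ± 5.21), Slc17a6 (17.0 ± 3.31) and Gad2 (16.5 ± 5.54) overlapped one another and were all above Slc17a7 (6.42 ± 2.30) and Slc32a1 (4.84 ± 1.37). In growth cones labelled KO the order was Gad2 (19.4 ± 5.44), Gad1 (14.7 ± 5.51), Slc17a6 (13.1 ± 4.11), Slc17a7 (6.47 ± 4.22) and Slc32a1 (5.32), and each gene overlapped the next. Slc18a3, Slc6a5, Slc5a7, Th and Chat were lower in growth cones of both genotypes, at 2.52 CPM per kilobase or less.

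As shares of the summed level of the 10 genes per kilobase, the VGLUT genes made up 79.6% ± 10.4 for WT somata and 81.8% ± 8.22 for those labelled KO, against 33.7% ± 1.89 in WT growth cones and 31.1% ± 3.52 in growth cones labelled KO (SD, n = 5 each). The GABA genes Gad1, Gad2 and Slc32a1 made up 14.5% ± 8.50 and 16.9% ± 6.83 in somata and 60.1% ± 1.29 and 63.6% ± 6.04 in growth cones, in the same order. The lowest growth cone share of the GABA genes, 55.6%, was above the highest soma share, 27.7%. The growth cone shares of the VGLUT genes stayed between 25.5% and 35.2% although the summed level ran from 31.4 to 87.4 CPM per kilobase. Gad1 as a share of both Gad genes was 55.7% ± 11.9 in WT growth cones and 42.5% ± 5.21 in those labelled KO, and it was most uneven in WT somata, at 27.9% ± 25.3.

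**Figure D4:**
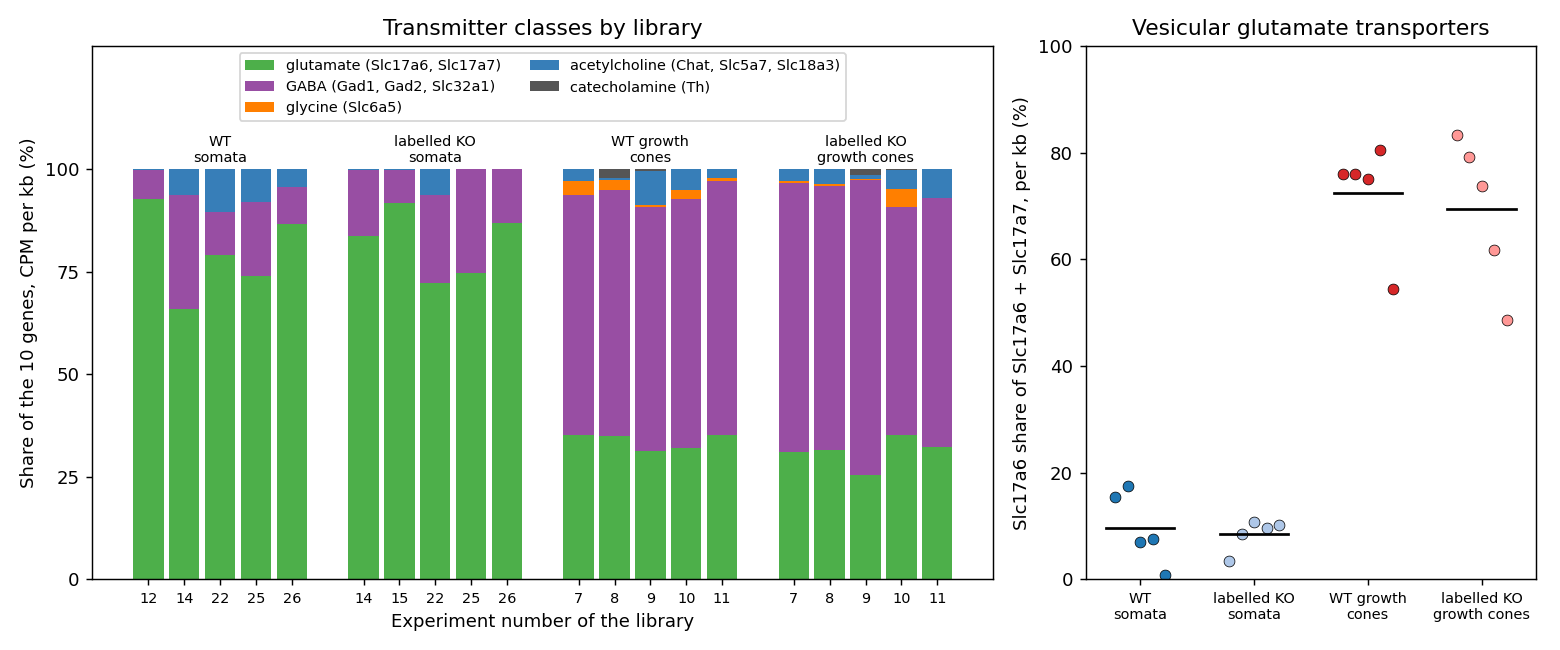
On the left, the share of the summed level per kilobase of the 10 genes that each transmitter class takes, in percent, by library. On the right, the share of Slc17a6 in both VGLUT genes, with points for libraries and lines for group means. Glutamate genes take 66.0% to 92.6% in somata and 25.5% to 35.2% in growth cones.

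The second comparison asked whether the genotype label went with these genes. In somata 5 of the 10 genes passed the filter and 0 were called by edgeR, against 0.731% of 14911 genes. Of the 5, 1 was under an unadjusted p of 0.05, against 8.57% of genes, and 1 was called by DESeq2, against 3.05%. In both cases it was Slc17a7, the VGLUT1 gene. Slc17a7 was lower in every soma library labelled KO than in every WT soma library, which 1.27% of genes tested also showed. Its log2 fold change of −0.66 ± 0.18 had an adjusted p of 0.192 (edgeR) and 0.0335 with DESeq2. The other 15 of 16 alternatives left Slc17a7 uncalled. The other soma values were −0.85 ± 0.63 for Slc17a6, 0.38 ± 0.79 for Gad1, −1.15 ± 0.59 for Gad2 and −2.97 ± 1.47 for Slc18a3, with edgeR adjusted p of 0.650 or more, and those groups overlapped. The Gad1 value turned to −0.15 without soma library 25 of the labelled KO. Gad2 was at −0.55 without WT soma library 14, and Slc18a3 was at −6.33 without soma library 22 of the labelled KO.

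For growth cones 8 genes passed the filter and 0 were called, against 0% of 15419 genes tested with edgeR, which found 329 genes (2.13%) at an unadjusted p under 0.05, and DESeq2 called 11 genes (0.072%). None of the 8 was under an unadjusted p of 0.05 or called by DESeq2. Log2 fold changes of labelled KO over WT were −0.37 ± 0.24 for Slc17a6, −0.47 ± 0.28 for Gad1 and 0.24 ± 0.27 for Gad2. For Slc17a7 the value was 0.02 ± 0.49, for Slc32a1 0.15 ± 0.53, for Slc6a5 −0.49 ± 1.12, for Slc5a7 −0.39 ± 1.42 and for Slc18a3 −0.16 ± 0.97. All 8 groups overlapped. Single libraries moved the sparse genes: Slc6a5 was at −2.77 without labelled KO growth cone library 10, Slc5a7 at 0.36 without WT library 7 and at −1.05 without labelled KO library 8, and Slc18a3 at 0.62 without WT library 9. A smaller SE, as for Slc17a6, Gad1 and Gad2, bounds the difference more closely than the large SE of the sparse genes, and a p that misses the threshold does not show equal levels.

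The difference of the compartment effect between genotypes was tested as an interaction, for which 0 of 8 genes passed with edgeR, against 0.0397% of 17645 genes tested. At an unadjusted p under 0.05 there were 2, Slc5a7 and Gad2, against 6.98% of genes, and DESeq2 called 1, Slc5a7, against 1.56%. The 3 highest values were 6.77 ± 2.76 for Slc5a7 (adjusted p = 0.605, edgeR), 2.80 ± 1.83 for Slc18a3 (adjusted p = 0.924, edgeR) and 1.36 ± 0.64 for Gad2 (adjusted p = 0.696, edgeR). The Slc5a7 value was −0.40 without WT soma library 25.

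Genes that handle the same transmitters were read in the same fits, where over all genes 23.1% were higher and 19.7% lower in WT growth cones, and 21.6% and 17% in libraries labelled KO. Of 14 genes of glutamate uptake and metabolism, 12 were tested in WT, of which 4 were higher and 6 lower in growth cones. The glial glutamate transporter genes Slc1a2 (log2 fold change 3.36, adjusted p = 0.000112, edgeR) and Slc1a3 (2.20, adjusted p = 0.00950) and the glutamine transporter gene Slc38a3 (3.28, adjusted p = 0.00469) were higher. Mitochondrial aspartate aminotransferase Got2 (−1.41, adjusted p = 5.03e-05, edgeR) and the neuronal transporter gene Slc1a1 (−1.36, adjusted p = 0.000469) were lower. In libraries labelled KO 2 of 12 were higher, Slc1a2 at 3.04 and Slc1a3 at 2.04, and 4 were lower, among them Slc1a1 at −1.28.

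Of 6 GABA uptake and breakdown genes 5 were tested, and 2 were higher in WT growth cones, among them the transporter gene Slc6a13 (5.04, adjusted p = 0.0389, edgeR). In libraries labelled KO 3 were higher, among them Slc6a13 (7.54, adjusted p = 0.00257, edgeR) and Aldh5a1 (1.53, adjusted p = 0.0172), an enzyme of GABA breakdown. Slc6a13 did not pass the filter in somata alone, so its adjusted p adds no support, and its WT compartments overlapped. Of 6 glycine genes, WT growth cones were higher for 2, Gcsh (1.29) and Gldc (2.49), and lower for 1, Shmt2 (−1.95). In libraries labelled KO Gcsh (1.66) was higher and Shmt2 (−1.57) lower, while Gldc was at 1.78 (adjusted p = 0.261, edgeR). The 3 genes encode enzymes of glycine cleavage and of serine-glycine exchange. Of the cholinergic list 3 of 6 genes were tested, with 0 called in WT and 1, Slc10a4 (1.80, adjusted p = 0.0270, edgeR), in libraries labelled KO. Of 18 monoamine genes, 9 were tested in WT, with Pts (1.93) higher and Maoa (−1.41) and Qdpr (−1.08) lower. In libraries labelled KO, of 11 tested, Pts (1.98) was higher and Maoa (−1.95) lower, while Qdpr was at −0.48 (adjusted p = 0.0528, edgeR). For the genotype label edgeR called 0 genes of these lists in either compartment. At an unadjusted p under 0.05, which 8.57% of all genes met in somata and 2.13% in growth cones, there were 2 glutamate genes of 12, 1 GABA gene of 4, 1 cholinergic gene of 3, 1 monoamine gene of 9 and 0 of 6 glycine genes in somata, and 1 GABA gene of 5 with 0 in the other lists in growth cones.

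Marker lists of other cells and regions moved with the compartment. Of 12 Hox genes that mark brainstem and spinal cord, 8 were tested in WT and 7 in libraries labelled KO, all higher in growth cones. With almost no soma counts these genes passed the filter only through growth cones and had to differ. The summed Hox level was 0.0225 to 0.242 CPM in somata, where 5 of 12 genes in WT and 7 of 12 in labelled KO were at 0 in all libraries, and 75.2 to 196 CPM in growth cones. The 18 transcription factors of brainstem and spinal transmitter fates summed to 0.0676 to 14.8 CPM in somata (10 at 0 in WT and 9 in labelled KO) and to 25.4 to 165 CPM in growth cones. Of the 4 tested in WT 3 were higher in growth cones, and of the 7 tested in libraries labelled KO 5 were, against 23.1% and 21.6% of all genes. Lhx1, a factor of inhibitory neurons, was among those higher in WT (8.38, adjusted p = 0.000113, edgeR). Lhx1 did not pass the filter in somata alone and entered the test only through growth cone counts, so its adjusted p adds no support. Except for Isl1 in WT, no other factor called in either genotype passed the filter in somata alone. The number of factors called is therefore no evidence about this list. The part of the Hox genes and of these factors in the results for the transmitter genes was not tested.

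Forebrain interneuron markers were higher in growth cones for 7 of 9 tested in WT, against 23.1% of all genes, and for 9 of 10 in libraries labelled KO, against 21.6%. In libraries labelled KO Npy was lower (−1.46, adjusted p = 0.000938, edgeR), as were 17% of all genes. The interneuron factor Dlx5 had log2 fold changes of 5.08 and 4.83, and Calb2, a calcium-binding protein gene, had 3.99 and 3.89. The 10 markers had summed levels of 116 to 177 CPM in WT and 389 to 541 CPM in labelled KO for somata, and of 570 to 776 CPM in WT and 570 to 968 CPM in labelled KO for growth cones. Between genotypes 1 of 9 tested markers was called in somata, against 0.731% of all genes. It was Npy (2.06, adjusted p = 0.000196, edgeR), a neuropeptide gene that counts toward the summed levels above. The other 8 tested ran from −0.63 for Dlx2 to 0.60 for Erbb4 and were not called. Astrocyte markers summed to 14.9 to 230 CPM in somata and 542 to 1024 in growth cones, and oligodendrocyte markers to 57.4 to 100.3 and 516 to 2232. Vessel and blood markers ran from 0.908 to 50.3 CPM in somata and 221 to 548 in growth cones, and choroid plexus and meningeal markers from 0.755 to 12.3 and 293 to 476. Microglial markers ran from 2.84 to 88.2 CPM in somata and 12.2 to 90.2 in growth cones, with 0 of 5 tested genes called in either genotype. The part of these markers in the transmitter gene results was not tested.

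**Figure D5:**
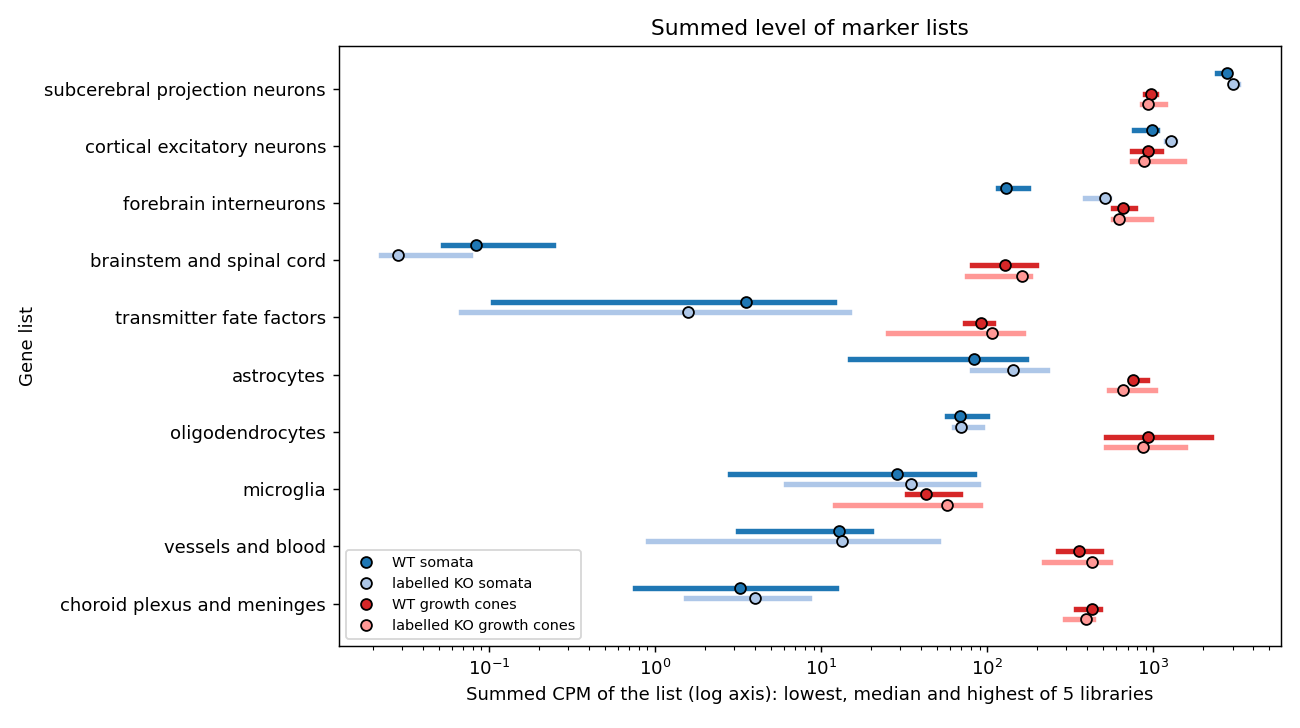
Summed CPM of each marker list on a logarithmic axis, with the lowest, median and highest of 5 libraries for each group. The Hox list of brainstem and spinal cord reaches 0.242 CPM at most in somata and 75.2 CPM at least in growth cones.

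Among the 10 growth cone libraries the transmitter genes varied in unlike ways. Pearson's r of log2(CPM + 0.5), given as a description over 10 libraries that share experiment numbers and depth, was 0.24 between Gad1 and Gad2, 0.42 between Gad2 and Slc32a1 and −0.13 between Gad1 and Slc32a1. It was 0.34 between Slc17a6 and Slc17a7. The highest among these genes was 0.69 between Gad1 and Slc17a7, followed by 0.67 between Slc17a6 and Slc6a5, 0.64 between Gad1 and Slc17a6 and 0.55 between Gad2 and Slc17a6. The lowest was −0.65 between Slc32a1 and Slc6a5. Of 10903 genes compared, the most alike in pattern were Ptprf (0.94) for Slc17a6, Ino80c (0.95) for Slc17a7, Sertad4 (0.97) for Gad1, Hsp90ab1 (0.96) for Gad2, Mfsd4a (0.95) for Slc32a1, Lamp1 (0.94) for Slc6a5 and Vrk1 (0.90) for Slc18a3. For Gad1, Gad2 was ranked 4461 among the genes compared. Each top r was picked as the highest of 10903 over 10 libraries, so its height is no evidence of a link.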

How the data were processed

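RNA was measured in 20 libraries (SMART-seq v4 and Nextera XT, per the labels' protocols). The authors deposited 1 table of unscaled counts per gene. Trimmomatic 0.39, STAR 2.7.1a and featureCounts 1.5.0 are named in the submitters' processing notes, as is the build GRCm39, whereas the table's coordinates are those of GRCm38: 54435 of 55487 exon lists equal those of GENCODE M21, which gave the symbols. The use of strand and of reads mapping to several places is not given in the sources used here. All columns matched a sample (0 unmatched) and 0 entries named no gene. Replicates differed beyond sampling noise (smallest chi-square per degree of freedom 52.7), so none was merged.

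Counts were filtered with filterByExpr (minimum count 10), scaled by TMM and tested with edgeR 4.0.16 (R 4.3.3) by the quasi-likelihood test, with Benjamini-Hochberg adjustment over all genes tested at 0.05. The compared groups, each of 5 libraries, entered each fit, and the interaction used all 20 libraries. The scripts were tested on simulated data. Alternatives were DESeq2 1.42.0, other scalings, no filter, a replicate block, a fit of all libraries and leaving out each library. CPM in the text use library totals, and the floor of 3 counts covers counting error only. The 10 genes were named whatever their result. From each list, the called genes of lowest p, 4 at most in each direction, could be named, as could the genes most alike over 10 libraries with a mean of at least 5 CPM. The members and lists were chosen with earlier results of these data known. Some genes of the lists are not reported here.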

Additional observations from a re-analysis of the deposited data

Results flagged for a closer look

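Of 37 groups of values tested for 1 library standing apart from the other 4, 6 did so. Chance gives about 1 in 20 such groups where values follow a normal distribution. Sparse CPM values do not, and a single library with counts among libraries at 0 always stands apart. The number flagged therefore cannot be set against that rate. All 6 values were the highest of their group. Gad1 in soma library 25 labelled KO was at 11.97 CPM, and the next library was at 4.70 CPM. Slc6a5 in growth cone library 10 labelled KO was at 26.1 CPM, with the next at 2.51 CPM. The Slc6a5 value of 0.0293 CPM in WT soma library 22 is a single count among libraries at 0. Slc5a7 was at 2.72 CPM in WT soma library 25 and at 0 in the other WT somata. Slc18a3 was at 0.996 CPM in soma library 22 labelled KO, with the next at 0.0451 CPM. Th was at 2.13 CPM in growth cone library 9 labelled KO, with the next at 0.260 CPM. What sets these libraries apart was not tested.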

How the results depend on the processing

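Slc17a6, Gad1, Gad2, Slc32a1 and Slc6a5 kept direction and call between compartments in every alternative that gave a value, in both genotypes (DESeq2 gave Slc6a5 no adjusted p in libraries labelled KO). For Slc32a1 and Slc6a5, which passed the filter only through growth cone counts, a kept call adds no support. Leaving out 1 library gave 5776 to 6536 genes called between compartments in WT and 5311 to 6449 in libraries labelled KO, with 5 to 6 and 5 to 7 transmitter genes higher over all alternatives. Over single genes, 673 alternatives kept direction and call, 11 lost a call, 4 gained one and 30 turned direction. For the labelled KO against WT, somata gave 109 genes, 402 with DESeq2, 30 with all 20 libraries fitted and 67 to 107 without 1 library; the lowest counts, 67 and 68, came without soma library 22 of the labelled KO or of WT. Growth cones gave 11 genes with DESeq2, 7 with all 20 libraries fitted and 0 to 0 without 1 library. The interaction gave 273 genes with DESeq2 and 5 to 12 without 1 library, with 12 and 11 without growth cone library 7 of WT or of the labelled KO. With a replicate block Bcl11b was not called in somata (adjusted p = 0.162, edgeR), the soma count was 34, the growth cone count 0 and the interaction count 0. Correlations of same-numbered libraries across genotypes were 0.005 to 0.096 in growth cones and −0.0461 to 0.0788 in somata. For libraries with different numbers they were −0.0663 to 0.0424 and −0.0934 to 0.0797. These ranges overlap and all values are small, so they do not settle whether the number pairs libraries.

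Directions that turned belonged to values within their SE of 0 or to sparse genes. In growth cones, labelled KO against WT, Slc17a7 became −0.0195 with upper-quartile scaling, −0.0127 with all libraries fitted and −0.23 with the block, where Slc18a3 became 0.43 and Bcl11b −0.0161. Between compartments in libraries labelled KO, Slc17a7 became 0.15 with upper-quartile scaling. The block turned the interaction of Slc17a6 to −0.10 and of Slc6a5 to −0.57. Without 1 library, ranges in growth cones ran from −0.27 to 0.26 for Slc17a7, −0.01 to 0.36 for Slc32a1, −1.05 to 0.36 for Slc5a7, −0.63 to 0.62 for Slc18a3 and −0.11 to 0.15 for Bcl11b. They ran from −0.15 to 0.94 for Gad1 in somata, −0.34 to 0.15 for Slc17a7 between compartments in labelled KO, and, for the interaction, from −1.35 to 1.25 for Slc6a5 and −0.40 to 7.56 for Slc5a7. The cause was not tested. Chat, Th, Slc5a7 and soma Slc6a5 held few counts or 0, which limits what these libraries show of them.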

Other observations

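Transcription factors that specify spinal and hindbrain transmitter fates were also read by level. Pax8, a factor of inhibitory neurons, stood at 8.26 ± 4.79 CPM in WT growth cones and 15.8 ± 11.5 CPM in those labelled KO (SD, n = 5 each), against a mean of 0.0178 CPM in WT somata and 0 in every soma library labelled KO. Isl1, a factor of motor neurons and other cholinergic cells, was at 41.2 ± 16.0 CPM in WT growth cones and 18.9 ± 21.6 CPM in those labelled KO, and at 3.51 ± 4.70 and 4.04 ± 5.38 CPM in somata (SD, n = 5 each). For WT it was called higher in growth cones (log2 fold change 3.43, adjusted p = 0.0251, edgeR), and in libraries labelled KO it was not (2.07, adjusted p = 0.326, edgeR). These calls do not show a difference between genotypes. Isl1 was not called for the interaction (−1.39 ± 1.93, adjusted p = 0.9999, edgeR). Nor was it called for labelled KO against WT in growth cones (−1.15 ± 0.925, adjusted p = 0.9995, edgeR). Slc17a8, which encodes the third vesicular glutamate transporter and was picked after its values were seen, was at 4.16 ± 7.22 CPM in WT growth cones and 4.26 ± 4.60 CPM in those labelled KO, with 1 library of each genotype at 0 and 4 of 5 soma libraries of each genotype at 0.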
